A study of Homo sapiens with 4 samples.

Results

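The contactins, the NCAM pair, L1CAM and its close homologue CHL1 are cell adhesion molecules of the immunoglobulin superfamily found on nerve cells. The 10 genes (CNTN1, CNTN2, CNTN3, CNTN4, CNTN5, CNTN6, NCAM1, NCAM2, L1CAM and CHL1) were taken by name as families of related adhesion molecules, with earlier results of these data known, and all 10 have a row among the 23576 rows of the expression table. RNA sequencing measured gene expression in 4 libraries of SH-SY5Y, a human neuroblastoma line, that fall into 2 groups of 2. The undifferentiated group is day 0, in medium with serum. Differentiated cells, collected on day 16, had been kept with 10 µM retinoic acid in medium with reduced serum for 7 days. Brain-derived neurotrophic factor (BDNF, 20 ng/mL) then replaced it, without serum, for the other 9 days. Retinoic acid, BDNF, loss of serum and time in culture therefore differ together between the groups and cannot be told apart.

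These proteins have extracellular immunoglobulin and fibronectin type III domains, through which they bind each other and other surface proteins on the same or a facing membrane. Contactins lack a cytoplasmic part and are held by a glycolipid anchor, so they act through partners such as the contactin-associated proteins, receptor tyrosine phosphatases and members of the L1 family. NCAM1 and NCAM2 mediate binding between like molecules, and NCAM1 can carry polysialic acid, which weakens adhesion. L1 family proteins span the membrane, promote axon growth and bind ankyrin, which ties them to the spectrin skeleton.

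The table gives 1 FPKM (fragments counted per length of transcript and per number of mapped fragments) per gene and group, so the level in each library and the spread between libraries cannot be shown, and depth is unknown. The authors' calls use q below 0.05, and "called", "rose" and "fell" refer to them. SE is a standard error recovered from the authors' statistic for each log2 fold (differentiated over undifferentiated), and 95% normal intervals use it. The labels do not say whether the libraries of a group came from separate cultures, so these errors may be technical. In bulk RNA, a change in the number of cells that express a gene and a change in RNA per cell cannot be told apart.

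Differentiated cells had more NCAM2, L1CAM and CHL1 RNA and less CNTN4 and CNTN6 RNA according to the authors' deposited table. CNTN1 and NCAM1, the most abundant members in both groups, were not called there. Of the 8 members tested, 3 were called higher, beside 2.43% of all 12810 tested rows, and 2 were called lower, beside 28.0% of them, according to the authors' deposited table. The members' lower share thus lay near that of all genes, and the 3 higher calls stood beside a low background. CNTN3 and CNTN5 were marked as not tested by the authors.

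Most folds in the table were negative: over the 11169 tested genes averaging 1 FPKM or more, the median log2 fold was -0.62. Each fold was therefore also compared with that median by a normal test with the SE and Benjamini-Hochberg adjustment. Of the 6 members in this test, NCAM1, NCAM2 and L1CAM lay above the median gene, beside 5.64% of all genes tested, and CNTN4 and CNTN6 lay below it, beside 4.56%. CHL1 and CNTN2 had means below 1 FPKM and entered only when the filter on low values was dropped. CHL1 then lay above the median gene (adjusted p = 0.000314) and CNTN2 was not called (adjusted p = 0.151). With an equal sum of values in the groups, or with quantile normalization, the members split into 5 higher and 2 lower. CNTN1 and NCAM1 joined the higher ones. No filter on low values was used for these member counts, so CHL1 is among them. Of the 11169 genes, 883 were then higher and 309 lower with an equal sum over all rows, and 564 and 478 with quantile normalization. The shares of 2.43% and 28.0% do not apply under these scalings.

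**Figure D1:**
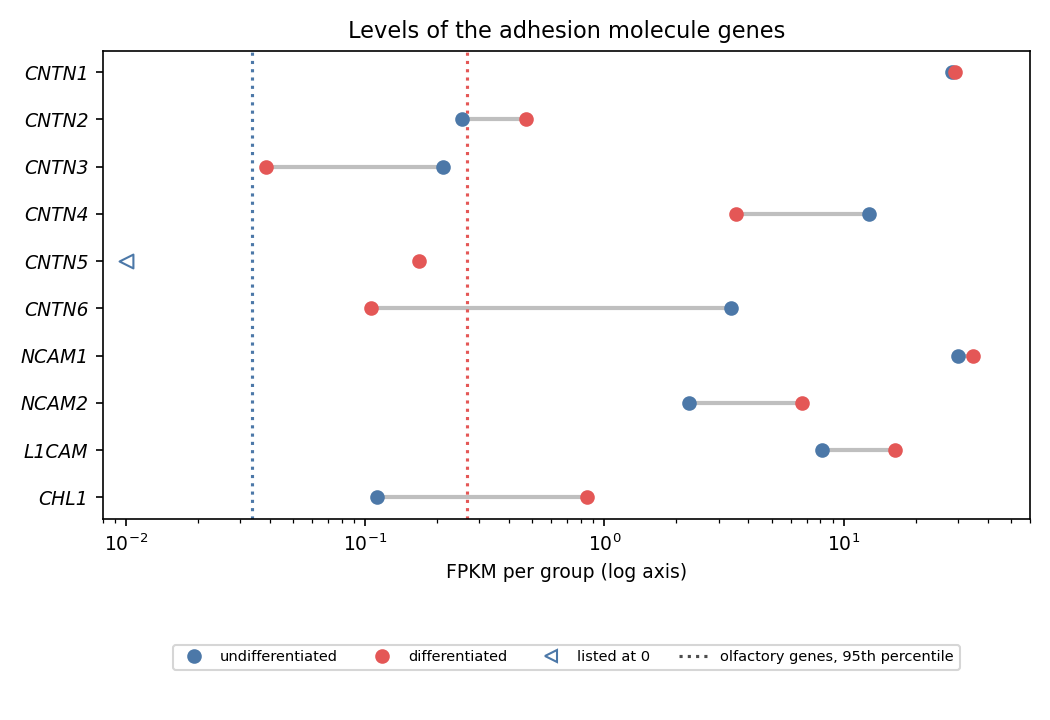
FPKM of each member in undifferentiated (blue) and differentiated (red) cells on a log axis, 1 value per group and no error bars; the triangle marks a value listed at 0, and dotted lines mark the 95th percentile of 376 olfactory receptor genes in each group. NCAM1 and CNTN1 lie furthest right in both groups, CNTN6 and CNTN4 move left, and NCAM2, L1CAM and CHL1 move right.

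Ordered by level before differentiation, the members ran from NCAM1 and CNTN1 through CNTN4, L1CAM, CNTN6 and NCAM2 to CNTN2, CNTN3, CHL1 and CNTN5. After it, the order was NCAM1, CNTN1, L1CAM, NCAM2, CNTN4, CHL1, CNTN2, CNTN5, CNTN6 and CNTN3. Among all tested rows, 15.3% had a higher FPKM than NCAM1 before and 8.50% after differentiation, and for CNTN1 these shares were 16.4% and 10.1%. For L1CAM the share went from 44.6% to 17.4% and for NCAM2 from 74.6% to 38.2%. For CNTN4 it went the other way, from 32.9% to 56.4%, and for CNTN6 from 66.3% to 99.6%. With no error per group, differences between neighbours in this order were not tested.

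The promoters of the 5 called genes are shown because those of the genes that fell are far apart in CpG content, while those of the genes that rose lie between them. Each line gives the 250 bases before the first listed transcription start, 5′ to 3′ on the gene's strand. The bases are from RefSeq on GRCh38.p14, with CpG dinucleotides in capitals. That start is the first entry for the gene and need not be the start of its hg19 locus. Windows and loci are on different builds and were not matched, so a window may lie inside the locus. The windows lie at chr3:2098616-2098865 (plus strand) for CNTN4, chr3:1092774-1093023 (plus) for CNTN6, chr21:21146912-21147161 (plus) for NCAM2, chrX:153875945-153876194 (minus) for L1CAM and chr3:197639-197888 (plus) for CHL1.
CNTN4: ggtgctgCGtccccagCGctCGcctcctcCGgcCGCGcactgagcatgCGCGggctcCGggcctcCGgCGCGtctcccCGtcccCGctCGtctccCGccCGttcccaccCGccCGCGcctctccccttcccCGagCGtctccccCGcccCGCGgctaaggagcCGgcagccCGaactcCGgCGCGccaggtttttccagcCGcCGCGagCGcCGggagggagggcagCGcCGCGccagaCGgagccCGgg
CNTN6: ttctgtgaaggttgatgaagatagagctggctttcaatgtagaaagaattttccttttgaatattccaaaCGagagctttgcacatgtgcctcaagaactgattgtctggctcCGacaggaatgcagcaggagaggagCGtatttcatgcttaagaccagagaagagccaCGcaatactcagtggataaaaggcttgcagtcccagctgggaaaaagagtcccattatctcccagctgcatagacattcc
NCAM2: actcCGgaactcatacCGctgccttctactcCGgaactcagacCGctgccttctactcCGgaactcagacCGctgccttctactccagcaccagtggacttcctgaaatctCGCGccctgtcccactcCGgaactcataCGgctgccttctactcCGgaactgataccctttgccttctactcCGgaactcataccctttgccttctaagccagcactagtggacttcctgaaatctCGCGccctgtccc
L1CAM: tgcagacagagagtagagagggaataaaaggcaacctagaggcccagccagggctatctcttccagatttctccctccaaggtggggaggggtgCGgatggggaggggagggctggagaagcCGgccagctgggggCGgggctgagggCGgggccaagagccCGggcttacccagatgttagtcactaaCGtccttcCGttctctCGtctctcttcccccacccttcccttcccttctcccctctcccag
CHL1: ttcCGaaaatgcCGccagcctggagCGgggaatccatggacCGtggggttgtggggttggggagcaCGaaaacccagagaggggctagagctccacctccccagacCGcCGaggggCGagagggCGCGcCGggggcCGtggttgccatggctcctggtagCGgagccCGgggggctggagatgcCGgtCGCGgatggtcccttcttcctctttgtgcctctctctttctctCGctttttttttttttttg
The CNTN4 window holds 40 CpG and the CNTN6 window 4, although both genes fell. The median over 27305 RefSeq promoters was 11, and 97.9% of them hold fewer CpG than CNTN4. Among the genes that rose, NCAM2 has 14 CpG, L1CAM 8 and CHL1 18.

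Of the 10 members, 9 matched an entry in the promoter table, and NCAM1 did not. Short motifs were counted on both strands in these windows, overlaps included: the E-box CANNTG, which basic helix-loop-helix factors bind, the nuclear receptor half-site AGGTCA and the GATA motif AGATAA. The CNTN6 window holds 4 E-box matches and 1 GATA match, and that of L1CAM 2 E-box matches. The windows of CNTN4, NCAM2 and CHL1 hold no match to any of these motifs. An E-box match is present in 62.2% of the 27305 promoters, the half-site in 12.1% and the GATA motif in 9.37%. The half-site has 1 match in the CNTN1 window and 0 in the other 8 windows. Whether the CNTN1 window lies before the start of its hg19 locus was not checked, and the same holds for the other windows. A match describes letters only.

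CNTN1, the contactin that forms paranodal axon-glia junctions together with CNTNAP1, stood at 28.3 FPKM before and 29.3 FPKM after differentiation according to the authors' deposited table. Its log2 fold was 0.05 with an SE of 0.241 (q = 0.900) according to the authors' deposited table, and the 95% interval ran from -0.42 to 0.52. The levels were nearly equal as deposited. CNTN1 lay above the median gene by 0.67 on the log2 scale, with an adjusted p of 0.0510, and its call thus turned on the scaling. The gene lies on chromosome 12, from 41086244 to 41466213 (hg19).

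CNTN4, which binds the amyloid precursor protein and guides olfactory axons in mice, fell from 12.7 to 3.54 FPKM according to the authors' deposited table. That is a log2 fold of -1.85 with an SE of 0.374 (q = 1.87e-05) according to the authors' deposited table. It also lay below the median gene, with a log2 difference of -1.22 (adjusted p = 0.0155). CNTN4 spans 959096 bases on chromosome 3, from 2140550 to 3099645 (hg19). The antisense gene CNTN4-AS2 shares this listed locus and is listed at 0 in both groups. GENCODE release 29 also places genes on the opposite strand within CNTN6, NCAM1, NCAM2, L1CAM and CHL1. Whether counting used strand is not stated, so reads of such pairs cannot be told apart.

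CNTN6, expressed in the developing cerebellum and linked to motor coordination in mice, had the largest fold of any tested member. It went from 3.38 to 0.106 FPKM according to the authors' deposited table, a log2 fold of -5.00 with an SE of 0.846 (q = 1.97e-07). Only 7 tested rows, CNTN6 included, had a fold as low or lower according to the authors' deposited table. Its level in differentiated cells was low: 92 of 376 olfactory receptor genes, which are not expected in these cells, had values as high or higher there. The size of the fold therefore rests on a value within the range of those genes. On the log2(FPKM + 1) scale it was -1.99. Relative to the median gene CNTN6 lay lower by a log2 difference of -4.38 (adjusted p = 1.51e-05). CNTN1 was 2.23 times as abundant as CNTN4 before differentiation and 8.28 times after it, and CNTN4 was 3.76 and 33.5 times as abundant as CNTN6. The gene lies on chromosome 3, from 1134629 to 1445278 (hg19).

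CNTN2, found on growing axons and later at the juxtaparanodes of myelinated fibres with CNTNAP2, stood at 0.254 and 0.469 FPKM according to the authors' deposited table (log2 fold 0.89, SE 0.647, q = 0.301). In each group 1 olfactory receptor gene was as high or higher. CNTN3 was listed at 0.212 FPKM before and 0.0386 FPKM after differentiation according to the authors' deposited table. CNTN5, which contributes to the auditory pathway in mice, was listed at 0 and 0.168 FPKM according to the authors' deposited table. In differentiated cells 188 olfactory receptor genes reached the level of CNTN3 and 50 that of CNTN5. The olfactory receptor genes themselves differed between groups, with a mean of 0.00506 FPKM before and 0.0726 FPKM after differentiation. CNTN2 lies on chromosome 1 from 205012340 to 205047171, CNTN3 on chromosome 3 from 74311722 to 74570343 and CNTN5 on chromosome 11 from 98891706 to 100229616 (hg19). The part of this background in the low values of CNTN2, CNTN3, CNTN5 and CNTN6 was not tested.

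NCAM1, the neural cell adhesion molecule that carries polysialic acid, was the highest member in both groups, at 30.1 and 34.7 FPKM according to the authors' deposited table. Its log2 fold was 0.20 with an SE of 0.224 (q = 0.519) according to the authors' deposited table, and the 95% interval ran from -0.24 to 0.64. It lay above the median gene by 0.83 on the log2 scale (adjusted p = 0.00476). NCAM1 makes several isoforms that differ in their membrane anchor, and 1 value per gene does not separate them. The gene lies on chromosome 11, from 112831969 to 113149158 (hg19).

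NCAM2, which in mice marks subsets of olfactory axons, rose from 2.26 to 6.70 FPKM according to the authors' deposited table. The log2 fold was 1.57 with an SE of 0.311 (q = 1.19e-05) according to the authors' deposited table, and the level was 2.97 times higher. Relative to the median gene the log2 difference was 2.19 (adjusted p = 4.45e-10). NCAM1 was 13.3 times as abundant as NCAM2 in undifferentiated cells and 5.18 times in differentiated cells. The folds of NCAM2 and NCAM1 differed by 1.36 on the log2 scale, with an SE of 0.383 if their errors are independent. NCAM2 lies on chromosome 21, from 22370633 to 22912517 (hg19), a locus it shares with RNU6-67, listed at 0 in both groups.

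L1CAM, the founding member of the L1 family, which promotes axon growth and bundling, rose from 8.08 to 16.4 FPKM according to the authors' deposited table. The log2 fold was 1.02 with an SE of 0.259 (q = 0.000871) according to the authors' deposited table. The level was 2.03 times higher, and relative to the median gene the log2 difference was 1.64 (adjusted p = 3.58e-08). At 14429 bases its locus is the shortest of the 10, on chromosome X from 153126971 to 153141399 (hg19).

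CHL1, the close homologue of L1, rose from 0.112 to 0.844 FPKM according to the authors' deposited table. Its log2 fold was 2.91 with an SE of 0.779 (q = 0.00165) according to the authors' deposited table, and the 95% interval ran from 1.38 to 4.44. The ratio was 7.52 between values below 1 FPKM. In undifferentiated cells 5 of 376 olfactory receptor genes were as high or higher, and in differentiated cells 0 were. Its locus is on chromosome 3, from 238279 to 451097 (hg19). L1CAM was the more abundant in both groups, at 72.1 times the CHL1 level before and 19.4 times after differentiation.

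**Figure D2:**
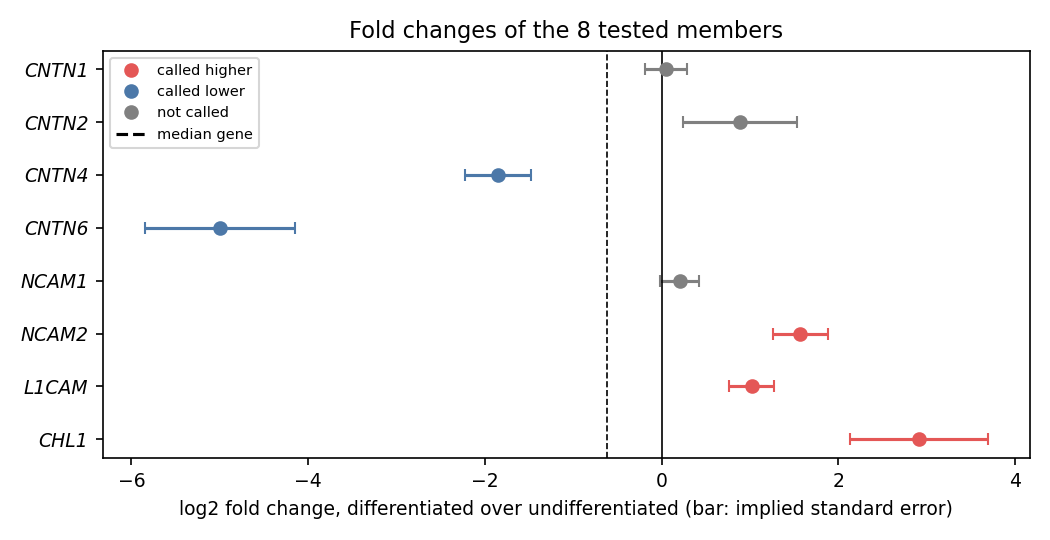
Log2 fold change of the 8 tested members, differentiated over undifferentiated; points are the authors' folds, bars 1 SE, the solid line 0 and the dashed line the median gene at -0.62. CNTN6 at -5.00 and CNTN4 at -1.85 lie left of the dashed line, and the other 6 lie right of it.

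Shares within a family do not change when a group's values are multiplied by a constant. The summed level of the 6 contactins was 44.9 FPKM before and 33.6 FPKM after differentiation, and CNTN1 made up 63.1% and 87.2% of it. The share of CNTN4 went from 28.3% to 10.5% and that of CNTN6 from 7.54% to 0.314%. In the NCAM pair the share of NCAM2 went from 6.98% to 16.2%. These shares are ratios of group values, with no error of their own.

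The L1 family has 4 members, and the other 2 moved as well. NRCAM, a partner of contactins at the nodes of Ranvier, fell from 78.1 to 16.4 FPKM (log2 fold -2.25, SE 0.264, q listed at 0) according to the authors' deposited table. NFASC, the neurofascin gene, rose from 0.654 to 2.48 FPKM (log2 fold 1.92, SE 0.742, q = 0.0349) according to the authors' deposited table. Both also lay apart from the median gene, with adjusted p of 9.87e-08 for NRCAM and 0.010 for NFASC. Of the summed L1 family level, NRCAM held 89.8% in undifferentiated and 45.5% in differentiated cells, while L1CAM held 9.29% and 45.3%. L1CAM and NRCAM thus stood at nearly the same level after differentiation. Their folds differed by 3.27 on the log2 scale, with an SE of 0.370 if their errors are independent.

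**Figure D3:**
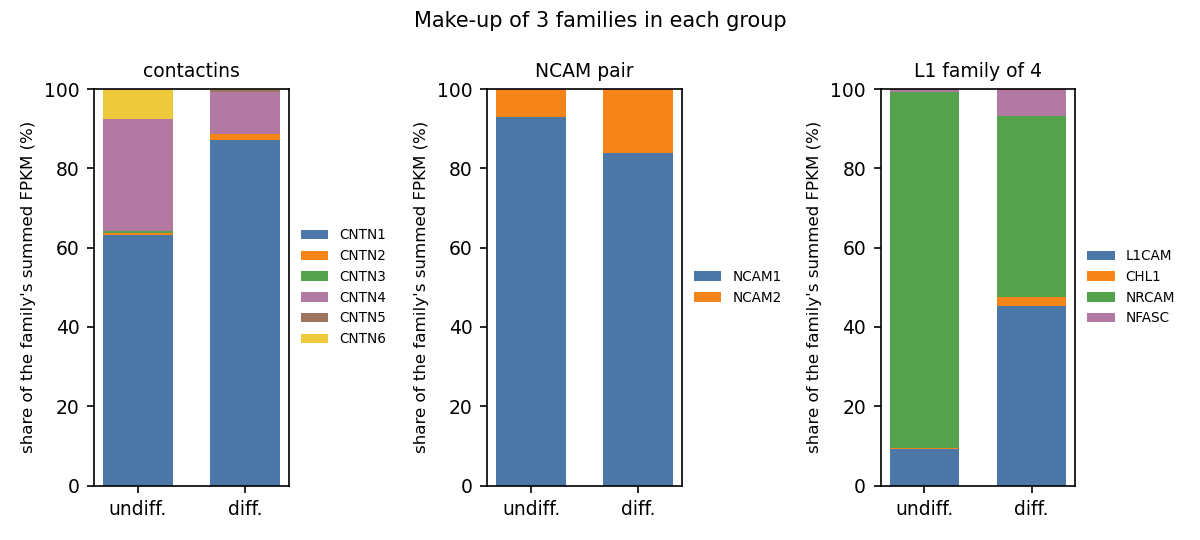
Share of each gene in the summed FPKM of its family (percent), in undifferentiated and differentiated cells, for the contactins, the NCAM pair and the 4 L1 family genes; bars are single group values. The CNTN1 share grows from 63.1% to 87.2%, that of NCAM2 from 6.98% to 16.2% and that of L1CAM from 9.29% to 45.3%.

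CHL1, CNTN6 and CNTN4 lie next to each other at the end of the short arm of chromosome 3, in that order. Their listed loci are 684 kb and 695 kb apart (hg19), with 0 other rows of the table in either gap. CHL1 rose while CNTN6 and CNTN4 fell. The folds of CHL1 and CNTN6 differed by 7.91 on the log2 scale, with an SE of 1.15 if their errors are independent. In undifferentiated cells the CHL1 level was 0.0331 of the CNTN6 level, and in differentiated cells it was 7.98 times that level. Each ratio rests on a low value, CHL1 at 0.112 FPKM before and CNTN6 at 0.106 FPKM after differentiation. On the log2(FPKM + 1) scale the folds were 0.73 for CHL1 and -1.99 for CNTN6. Of 6 other tested genes on this arm's end, 3 were called lower and 0 higher according to the authors' deposited table, with a median log2 fold of -0.80. These were SETMAR (-1.62), ITPR1 (-1.08) and CRBN (-0.78) according to the authors' deposited table. None of the 6 lay apart from the median gene by the adjusted test.

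NCAM1 lies on the long arm of chromosome 11 near the dopamine receptor gene DRD2. Of 4 tested neighbours, DRD2 rose from 1.71 to 5.49 FPKM (q = 0.00675), and ZW10 (-0.98) and USP28 (-1.31) fell, according to the authors' deposited table. Around L1CAM on chromosome X, 1 of 8 tested neighbours was called: HCFC1 fell, with a log2 fold of -1.24 according to the authors' deposited table. DRD2 alone among the tested neighbours of NCAM1 and L1CAM lay apart from the median gene (adjusted p = 0.000291), within the genes that averaged 1 FPKM or more.

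**Figure D4:**
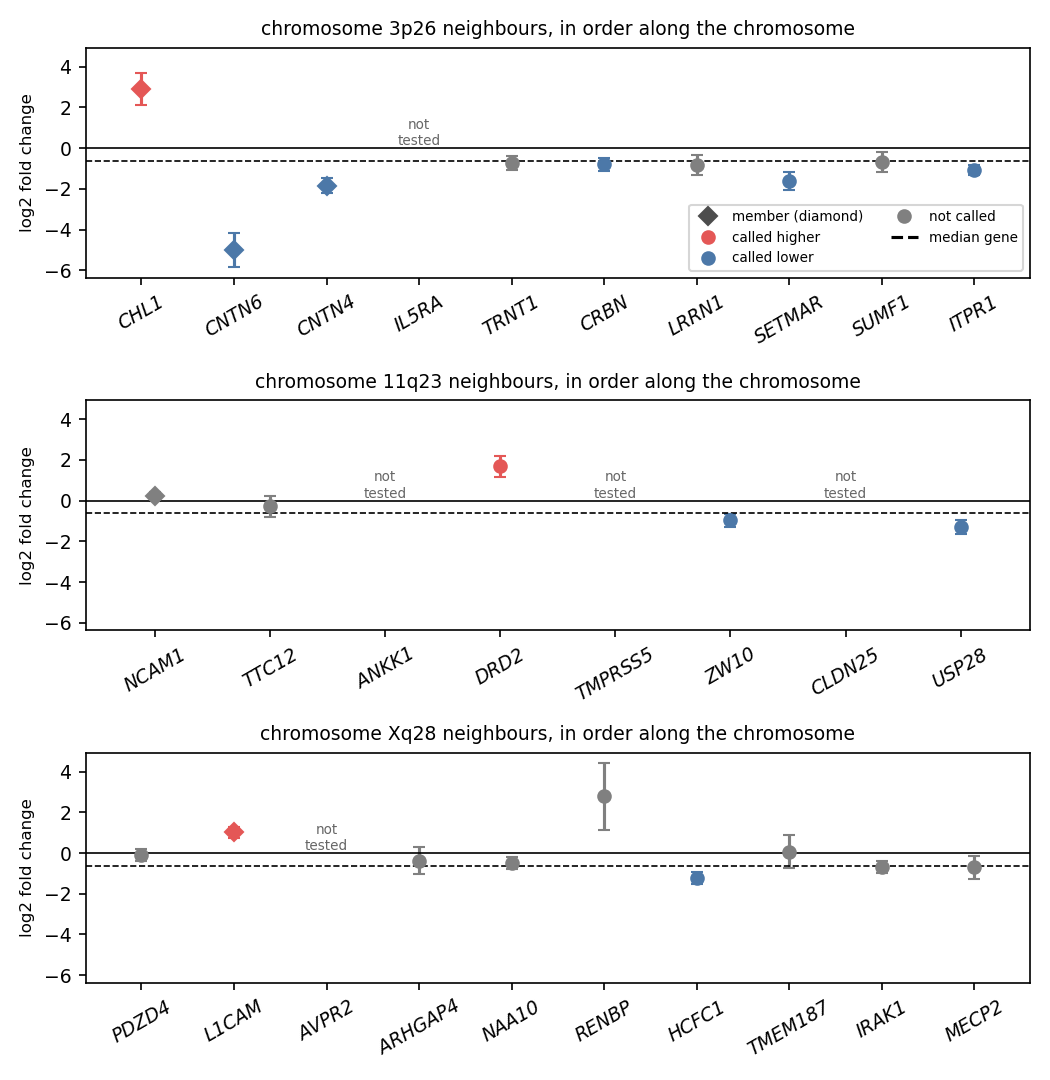
Log2 fold change of the members (diamonds) and their chromosome neighbours (circles) in chromosome order, evenly spaced, in 3 panels; bars are 1 SE, the dashed line the median gene at -0.62. CHL1 at 2.91 stands beside CNTN6 at -5.00 and CNTN4 at -1.85, and the other 6 tested genes of that panel all lie below the dashed line, from CRBN at -0.78 to SETMAR at -1.62 among those called.

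Contactins signal through partners on the membrane. Of 6 contactin-associated protein genes 4 were tested, and 1 was called: CNTNAP2, the partner of CNTN2 at the juxtaparanode, fell from 1.39 to 0.142 FPKM (log2 fold -3.30, SE 0.631, q = 5.51e-06) according to the authors' deposited table. Its listed locus holds 5 other rows, so fragments there are uncertain. In differentiated cells 64 of 376 olfactory receptor genes were as high as CNTNAP2 or higher, so the size of its fold is uncertain. CNTNAP2 averaged 0.768 FPKM and did not enter the test relative to the median gene with the filter on low values. CNTNAP5 stood at 2.30 and 1.12 FPKM (q = 0.0743) and CNTNAP1, the partner of CNTN1, at 0.859 and 0.739 FPKM (q = 0.815) according to the authors' deposited table.

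Of 12 tested ligands and other partners, 1 was called higher and 3 lower according to the authors' deposited table, and their median log2 fold was -0.15 over the 11 that averaged 1 FPKM or more. The tyrosine phosphatase gene PTPRG, whose protein binds several contactins, had a log2 fold of -1.10 (q = 0.0326) according to the authors' deposited table. ALCAM went from 60.3 to 27.6 FPKM and ADAM22, a receptor for LGI proteins, from 40.7 to 15.7 FPKM according to the authors' deposited table. LGI1, the secreted ligand of ADAM22, rose from 0.209 to 1.28 FPKM (log2 fold 2.61, SE 1.02, q = 0.0368) according to the authors' deposited table. In undifferentiated cells 2 of 376 olfactory receptor genes were as high as LGI1 or higher, so the size of its fold is uncertain. LGI1 averaged 0.745 FPKM and did not enter the test relative to the median gene with the filter on low values. None of the 3 falls was called relative to the median gene (adjusted p from 0.0981 for ADAM22 to 0.608 for PTPRG). Relative to it, 3 of the 11 were higher and 0 lower, beside 5.64% and 4.56% of all genes in that test. The 3 were the extracellular matrix genes TNC (adjusted p = 0.00348) and TNR (adjusted p = 0.0275) and the APP relative APLP1 (adjusted p = 0.0456), named after their values were seen. APP stood at 131 and 91.4 FPKM and APLP2 at 77.3 and 69.5 FPKM according to the authors' deposited table, and neither was called.

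Among genes of polysialic acid and NCAM signalling, 9 were tested, with 0 called higher and 3 lower according to the authors' deposited table. ST8SIA2, a polysialyltransferase that modifies NCAM1, fell from 1.60 to 0.450 FPKM (log2 fold -1.83, SE 0.581, q = 0.00898) according to the authors' deposited table. The other polysialyltransferase gene, ST8SIA4, named after its values were seen, stood at 0.0660 and 0.0147 FPKM according to the authors' deposited table, without a test. NCAM1, the substrate, was not called, while the spectrin gene SPTBN1 (-0.91) and CREB1 (-1.03) fell according to the authors' deposited table. None of these 3 falls lay apart from the median gene, with adjusted p of 0.204 for ST8SIA2, 0.524 for SPTBN1 and 0.502 for CREB1. GAP43, a growth cone protein on which NCAM-dependent neurite growth draws, stood at 62.2 and 86.8 FPKM (q = 0.0752) according to the authors' deposited table. It lay above the median gene (adjusted p = 2.17e-05), the 1 gene of the list that lay apart from it.

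For the anchors, sheddases and co-receptors of L1 proteins, 16 genes were tested, with 0 called higher and 7 lower according to the authors' deposited table. Of all tested rows 2.43% were called higher and 28.0% lower. Their median log2 fold was -0.68 over the 13 that averaged 1 FPKM or more, close to the -0.62 of all genes. The protease genes ADAM10 (-0.90) and BACE1 (-0.81), which cleave L1 and CHL1 from the surface, fell according to the authors' deposited table. The integrin genes ITGAV (-1.27) and ITGB1 (-0.68), the semaphorin co-receptor gene NRP1 (-1.76), NUMB (-1.01) and RDX (-0.88) fell as well according to the authors' deposited table. None of these 7 lay apart from the median gene, the lowest adjusted p being 0.102 for ITGAV. In that test 3 of the 13 were higher and 0 lower than the median gene, beside 5.64% and 4.56% of all genes in it. The 3 were SHTN1 (adjusted p = 0.00202), SPTBN4 (adjusted p = 0.0138) and ANK2 (adjusted p = 0.0464), named after their values were seen. They are other genes than the 7 and were not called by the authors. EZR stood at 30.9 and 22.5 FPKM according to the authors' deposited table and was not called.

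Of 28 tested genes for other immunoglobulin adhesion molecules of nerve cells, 3 were called higher and 6 lower according to the authors' deposited table. The median log2 fold was -0.51 over the 24 that averaged 1 FPKM or more. MCAM, the melanoma cell adhesion molecule, rose from 1.90 to 7.29 FPKM (q = 3.60e-06), and IGSF8 from 4.09 to 8.14 FPKM (q = 0.0442), according to the authors' deposited table. IGDCC3, named after its values were seen, went from 0.104 to 0.581 FPKM (q = 0.0239) according to the authors' deposited table. JAM3 (-1.19), THY1 (-1.14), PRTG (-1.08), ROBO2 (-1.03), LSAMP (-0.99) and BSG (-0.91) fell according to the authors' deposited table. Relative to the median gene, 3 of the 24 were higher and 0 lower, beside 5.64% and 4.56% of all genes in that test.

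**Figure D5:**
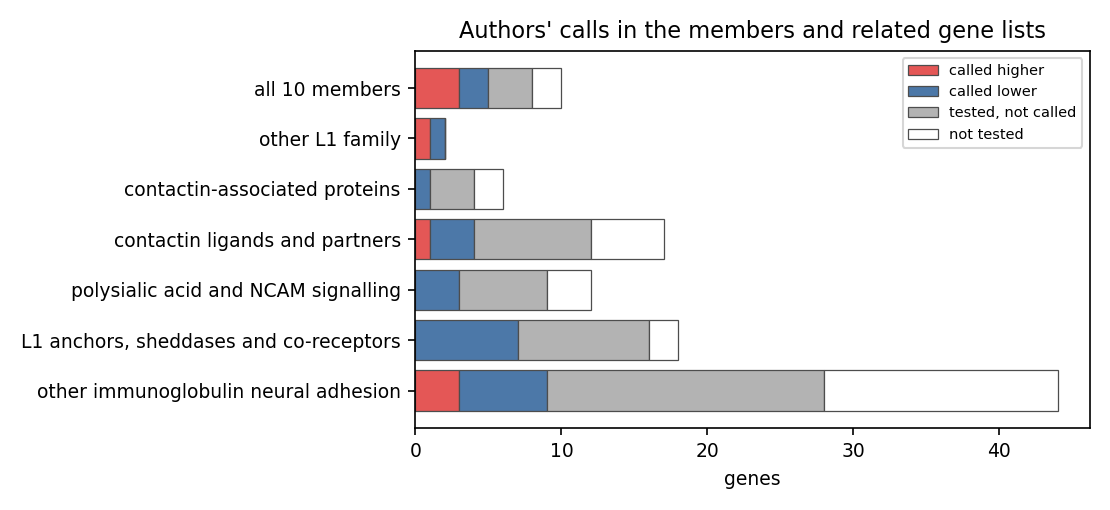
Number of genes called higher, called lower, tested but not called and not tested according to the authors' deposited table, for the 10 members and 6 related gene lists. The members show 3 higher and 2 lower calls of 8 tested. The anchors, sheddases and co-receptors of L1 proteins show 0 higher and 7 lower of 16 tested. Of all tested rows 2.43% were called higher and 28.0% lower.

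Of 10 sympathoadrenal neuroblast markers 9 were tested, and HAND2 stood at 205 and 136 FPKM according to the authors' deposited table. Of the 9, 6 were called lower and 0 higher according to the authors' deposited table. The highest was the granule protein gene CHGA, which fell from 435 to 200.04 FPKM according to the authors' deposited table. GATA2 (-2.85), DBH (-2.10), GATA3 (-1.80) and CHGB (-1.28) fell according to the authors' deposited table, and these 4 also lay below the median gene (adjusted p from 5.24e-09 for GATA2 to 0.0266 for CHGB). The catecholamine enzyme gene TH was listed at 0 before and 0.202 FPKM after differentiation. Adhesion molecules of this family are also made by Schwann cells. Of 10 Schwann and glial markers 2 were tested, and PMP22 rose from 9.75 to 34.4 FPKM according to the authors' deposited table. The other tested marker, S100B, stood at 4.33 and 2.98 FPKM (q = 0.516) according to the authors' deposited table. The summed level of the 10 was 14.7 FPKM before and 38.3 FPKM after differentiation, of which PMP22 made up 9.75 and 34.4 FPKM. SOX10, FOXD3 and GFAP were listed at 0 in undifferentiated cells and at no more than 0.0218 FPKM in differentiated cells, and CDH19 was listed at 0 in differentiated cells. Of 10 fibroblast and mesenchymal markers 7 were tested, and 5 of these were called lower and 0 higher according to the authors' deposited table. Of all tested rows 28.0% were called lower. The summed level of the 10 mesenchymal markers went from 175 to 75.7 FPKM. PDGFRA (-1.84), TWIST1 (-1.49), FN1 (-2.14), DCN (-1.96) and PDGFRB (-0.95) fell according to the authors' deposited table, and PDGFRA, TWIST1 and FN1 also lay below the median gene, while LUM lay above it (adjusted p = 0.00290). The part of PMP22-expressing or mesenchymal cells in the members' changes was not tested.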

How the data were processed

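RNA from 2 undifferentiated and 2 differentiated libraries of SH-SY5Y cells was depleted of ribosomal RNA and copied with tailed random primers, per the labels' protocols. TopHat2 2.0.8, Cufflinks 2.0.2 and the build hg19 are named in the submitters' processing notes. The authors deposited 1 FPKM per gene and group, with log2 fold, test statistic, p-value and q-value beside it, per the file headers. How libraries were combined and scaled, and whether counting used strand, is not given in the sources used here. Over 12750 tested rows the deposited p-value equalled the normal p of the statistic within 0.001.

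The planned limma fit needs values per library and was not run, and the authors' q-values took its place. The SE is the log2 fold over the statistic. Of 12810 tested rows, 11169 that averaged 1 FPKM or more and had a usable error entered the test relative to the median gene. The 28 rows named by a date were left out of it. The test was also run on simulated folds with errors drawn from the same SE, which cannot show whether the SE is right. Of 173 genes in 16 lists 173 matched a row, 5 through an older symbol. All members were named. From the partner and neighbour lists, called genes could be named, up to 6 a list with the largest folds, and the 2 most abundant; from the other immunoglobulin genes, those called that reach 1 FPKM in either group; and from the marker lists, any gene. Genes of the lists that fall outside this rule are marked as named after their values were seen. Members and lists were chosen with earlier results of these data known. Loci are hg19 as listed, with starts raised by 1. A locus shared with another row makes a value uncertain (CNTN4, NCAM1, NCAM2, CNTNAP2, PTPRG, SPTBN1, ANK2, ADAM10, BACE1, THY1, ITPR1, DRD2, SNAP25 and PMP22). Depth is unknown, so no counting interval is given. Alternatives covered scaling, pseudocount, filter and threshold. Python 3.11.15, numpy 2.4.6, pandas 2.3.3, scipy 1.17.1 and matplotlib 3.10.9 were used.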

Additional observations from a re-analysis of the deposited data

How the results depend on the processing

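The 5 called members kept their direction and their call under q below 0.01 and below 0.1 and under each of 4 other scalings, which raised the median log2 fold by 0.60 to 0.78. The members called higher went from 3 to 5 with an equal sum over all rows, with an equal sum without small RNA rows and with quantile normalization, through CNTN1 (adjusted p from 0.00931 to 0.0351) and NCAM1, and to 4 relative to the median gene. The members called lower stayed at 2. Relative to the median gene, 2 members lay below it, and 1 where only genes averaging 5 FPKM or more were kept, since CNTN6 then left the test. The members' median log2 fold went from 0.13 to 0.55 without the filter on low values, as CNTN2 and CHL1 entered. The counts of members called higher or lower used no filter on low values, so they include CHL1, which averaged 0.478 FPKM. Without that filter 311 of all 12810 tested rows were called higher and 3582 lower. Over the 11221 that averaged 1 FPKM or more, 249 were called higher and 3524 lower. With q below 0.01 these were 149 and 2167, and with genes averaging 5 FPKM or more 113 were higher. With an equal sum over all rows the split was 883 and 309 of 11169 genes, and without small RNA rows 675 and 434. Relative to the median gene it was 622 and 500, and with quantile normalization 564 and 478. These splits were adjusted over all tested genes before the filter on low values. The 622 and 500 thus differ from the 630 and 509 behind the shares of 5.64% and 4.56%, which were adjusted after it. With a pseudocount of 1 FPKM the log2 fold was -1.99 for CNTN6, -0.22 for CNTN3, 0.73 for CHL1 and 0.23 for CNTN2. No paired analysis was possible because the table holds 1 value per group, and for the same reason no library could be left out. Depth is unknown, which limits the members with a value below 1 FPKM in either group: CNTN2, CNTN3, CNTN5, CNTN6 and CHL1.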

Other observations

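Most members are long genes: 8 of the 10 listed loci span 200 kb or more, from 212819 bases for CHL1 to 1337911 bases for CNTN5. CNTN2 spans 34832 bases and L1CAM, which was called higher, 14429 bases. Span classes were set after the members' spans were seen. Among 558 tested rows alone on a locus of at least 200 kb, 7.17% were called higher and 29.4% lower according to the authors' deposited table, with a median log2 fold of -0.51. Among 6390 such rows under 50 kb, 2.21% were called higher and 28.5% lower according to the authors' deposited table, with a median of -0.59. The difference between these shares was not tested.

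Among 11 tested neuronal marker genes, SNAP25 rose from 25.1 to 42.2 FPKM (q = 0.0431) and NEFM fell from 6.78 to 3.13 FPKM (q = 0.00667) according to the authors' deposited table, and the other 9 were not called. The median log2 fold of the 11 was -0.09, beside -0.62 for all genes. Relative to the median gene 5 were higher and 0 lower, beside 5.64% and 4.56% of all genes in that test. STMN2 stood at 360 and 357 FPKM and TUBB3 at 201 and 170 FPKM according to the authors' deposited table.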
